A study of Mus musculus with 39 samples.

Results

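Mouse epiblasts of 3 stages, E5.5, E6.5 and E7.5 (days after mating), either Stat3 null or wild-type (WT), were compared for 10 transcription factors that mark the primitive streak and the posterior of the embryo: T, Eomes, Mixl1, Tbx6, Mesp1, Mesp2, Msgn1, Evx1, Nkx1-2 and Cdx1. They were taken by symbol from the 47643 genes of the deposited count tables, and each symbol was listed once. By E7.5, 8 of 9 WT epiblasts held Msgn1, Nkx1-2, Tbx6 and Cdx1 at high levels and Eomes at a low level, whereas the 3 Stat3 null epiblasts held no Msgn1 count, low Nkx1-2, Tbx6 and Cdx1, and high Eomes. The remaining WT epiblast, E7.5 WT 3, stood apart from the other WT epiblasts in 7 of the factors. Between genotypes at E7.5, only Msgn1 was called with all libraries, and 5 factors were called without WT 3. The Msgn1 call was lost when any 1 of the other 11 libraries was left out.

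Each epiblast library held the RNA of 1 epiblast, from which the extraembryonic ectoderm and visceral endoderm had been removed by hand. The embryos came from matings of Stat3 heterozygous mice on the CD1 outbred background, and in the null allele a neomycin resistance cassette replaces 3 exons, so that reads from the remaining exons are still counted. There were 2 WT and 4 null epiblasts at E5.5, 9 WT and 8 null at E6.5, and 9 WT and 3 null at E7.5. Epiblast stem cells (EpiSCs), the cultured counterpart of the post-implantation epiblast, comprised 2 WT lines (8 and 13) and 2 null lines (2 and 6). All 4 lines were kept on fibronectin in N2B27 medium, to which Activin A, FGF2 and XAV-939 had been added. XAV-939 inhibits tankyrase and so Wnt signalling, and both genotypes received it.

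The primitive streak forms at the posterior of the epiblast, where Wnt3, Nodal and BMP signals meet and cells leave the epithelium as mesoderm and endoderm. T (Brachyury), Eomes and Mixl1 are early factors of this region. Mesp1 marks early mesoderm leaving the streak, Tbx6, Msgn1 and Mesp2 act in presomitic mesoderm and somite formation, and Evx1 marks the posterior streak. Nkx1-2 (Sax1) and Cdx1 mark the posterior epiblast and the tissue that elongates the axis, and Eomes is also expressed in extraembryonic ectoderm and visceral endoderm.

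On GRCm38 (GENCODE vM21), T lies at chr17:8434423-8442496, Eomes at chr9:118478212-118486132, Mixl1 at chr1:180693043-180697034, Msgn1 at chr12:11208360-11208972 and Evx1 at chr6:52313498-52318378. Chromosome 7 holds 4 of the 10 factors. These are Mesp1 (chr7:79792241-79793788), Mesp2 (chr7:79810727-79813439), Tbx6 (chr7:126781483-126785560) and Nkx1-2 (chr7:132594878-132599637). Mesp1 and Mesp2 are 16938 bases apart and on opposite strands. All 10 are protein-coding genes, and no transcript of theirs had a near-identical copy in another gene (at least 95% identity over 50% of the transcript and 200 bases). Exons of Eomes, Evx1 and Nkx1-2 overlap those of Gm33460, Evx1os and Gm16764 on the opposite strand, and since the strand setting of the counting is not given, reads of these pairs cannot be told apart. Nkx1-2 also overlaps the span of Fgfr2 on the same strand, though not its exons. Whether Fgfr2 reads add to the Nkx1-2 count was not tested.

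The bases before the start of T, Msgn1, Nkx1-2, Tbx6 and Eomes were read from RefSeq's promoter windows (GRCm38.p6), which held 8 of the 10 factors. Mixl1 and Cdx1 were not matched. Each run is 5′ to 3′ on the strand of the gene, stops before the first annotated exon, and has matches to the TCF/LEF motif CTTTGA, read on both strands, in capitals. The runs are chr17:8434173-8434422 (plus strand) for T, chr12:11208973-11209198 (minus) for Msgn1, chr7:132599638-132599887 (minus) for Nkx1-2, chr7:126781233-126781482 (plus) for Tbx6 and chr9:118477939-118478188 (plus) for Eomes.
T: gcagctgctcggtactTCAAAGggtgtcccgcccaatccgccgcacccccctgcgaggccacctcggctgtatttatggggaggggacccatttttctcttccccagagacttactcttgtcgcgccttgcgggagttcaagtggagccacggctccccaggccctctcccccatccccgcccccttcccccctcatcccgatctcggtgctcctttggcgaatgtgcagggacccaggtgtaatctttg
Msgn1: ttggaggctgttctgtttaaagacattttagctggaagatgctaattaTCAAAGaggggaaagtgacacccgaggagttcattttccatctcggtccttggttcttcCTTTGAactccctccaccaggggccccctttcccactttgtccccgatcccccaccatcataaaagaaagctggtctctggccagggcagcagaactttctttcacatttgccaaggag
Nkx1-2: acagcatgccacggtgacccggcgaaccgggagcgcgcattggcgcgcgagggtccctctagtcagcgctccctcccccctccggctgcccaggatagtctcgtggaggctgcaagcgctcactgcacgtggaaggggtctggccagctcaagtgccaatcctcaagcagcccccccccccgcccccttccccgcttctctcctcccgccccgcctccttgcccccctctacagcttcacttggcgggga
Tbx6: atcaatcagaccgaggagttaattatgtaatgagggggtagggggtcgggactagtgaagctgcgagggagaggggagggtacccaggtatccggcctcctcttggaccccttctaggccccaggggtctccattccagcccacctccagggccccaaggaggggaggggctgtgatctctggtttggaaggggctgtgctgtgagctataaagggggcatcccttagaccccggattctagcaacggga
Eomes: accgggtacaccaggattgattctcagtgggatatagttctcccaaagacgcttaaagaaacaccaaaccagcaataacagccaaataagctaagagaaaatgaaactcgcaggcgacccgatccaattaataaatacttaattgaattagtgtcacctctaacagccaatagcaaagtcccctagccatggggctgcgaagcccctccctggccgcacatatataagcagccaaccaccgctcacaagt

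The TCF/LEF motif occurred in the 250 bases before the start of 3 of the 8 factors (T, Mesp1 and Msgn1), and in 13.8% of all 32851 windows. Counted from the start, the first base of a match was at -202 and -143 in Msgn1 and at -234 in T. The Mesp1 matches, at -72 and -31, lie in an exon of GENCODE. The STAT motif TTCNNNGAA was in none of the 8 windows and in 7.02% of all windows. The T-box motif AGGTGTGA (1.12% of all windows) and the FOXH1 motif AATCCACA (0.718%) were in none of the 8, and the E-box CANNTG was in 6 of the 8 and in 66.2% of all. A match is a run of letters only, and its absence from these windows says nothing of more distant sequence.

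Total counts were 22941210 to 79013960 in the epiblast libraries and 63445877 to 127583699 in EpiSCs. Levels are given as CPM (each count scaled by its library's total to a common depth), and a count of 0 allows up to 3 counts, which for a whole epiblast group at 0 is a mean of 0.0756 to 0.109 CPM. At E6.5, 3 WT and 3 null libraries (replicates 1, 2 and 3 of each) held over 40000000 counts and stood apart from the other 11. Stat3 was lower in null libraries: 9.21 to 22.7 against 39.3 and 49.4 CPM at E5.5, 1.41 to 7.59 against 5.84 to 27.2 at E6.5, 1.22 to 1.48 against 4.80 to 25.3 at E7.5, and 3.17 and 3.52 against 17.8 and 23.0 in EpiSCs. Only at E6.5 did these groups overlap, and the edgeR adjusted p was 0.999, 0.334, 0.00808 and 0.00706 in that order. Markers of other tissues varied between libraries. The summed CPM of 18 visceral endoderm genes ran from 377 to 13260 at E5.5 and that of 12 extraembryonic ectoderm genes from 86.2 to 1782. E5.5 null 1 and E6.5 null 1 had the highest extraembryonic ectoderm sums of their stages, 1782 and 1224 CPM. The first of these went against its label: Pou5f1, the defining epiblast factor, was at 0.654 CPM, against 100.6 to 293 in the other E5.5 libraries, so results at E5.5 are given with and without it. Since these are bulk libraries, fewer cells of a type and less RNA per cell cannot be told apart.

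**Figure D1:**
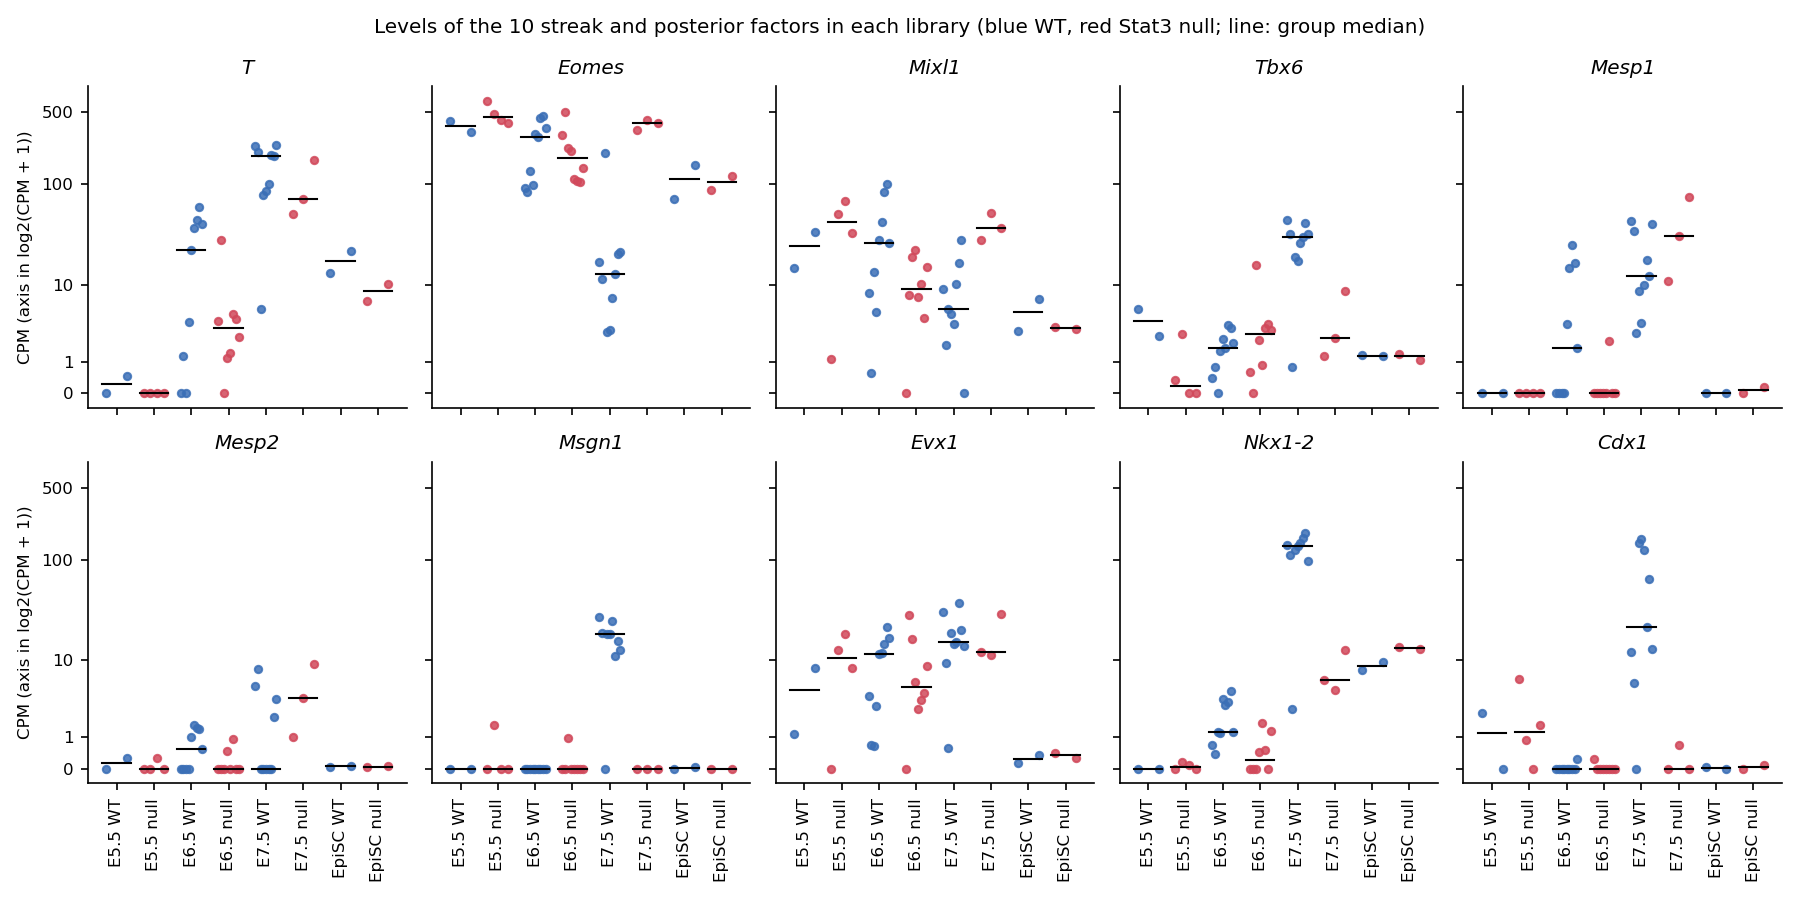
Each point is 1 library, with WT in blue and Stat3 null in red, and the line is the group median. The y axis is CPM spaced as log2(CPM + 1), and the x axis gives stage and genotype. At E7.5, 8 WT points lie at 97.9 to 184 CPM for Nkx1-2, above the 3 null points at 4.74 to 12.9.

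WT epiblasts of successive stages held different sets of the factors. Eomes, Mixl1, Tbx6 and Evx1 had over 1 CPM in both E5.5 epiblasts, T and Mesp1 in 7 and 5 of the 9 at E6.5, and Msgn1 in none before E7.5. Nkx1-2 was called higher at each step, and Eomes was called lower at E7.5. The number of factors over 1 CPM was 4 and 5 in the E5.5 WT epiblasts, 2 to 8 (median 7) at E6.5, and 9 or 10 in 8 of 9 epiblasts at E7.5, with 5 in E7.5 WT 3.

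At E5.5, Eomes stood at 412 and 317 CPM in the WT epiblasts and at 641, 472, 415 and 391 in null 1 to null 4, with overlap. These values came with visceral endoderm sums of 6177 and 8052 CPM (WT) and 377 to 13260 (null), in which 5 to 18 of the 18 genes had over 3 counts. The extraembryonic ectoderm sums were 86.2 and 580 CPM in WT and 120 to 1782 in null, with 10 to 12 of the 12 genes over 3 counts and none at 0 in a whole group. How much of the Eomes level those tissues contributed was not tested. Mixl1, a homeobox factor of mesendoderm, was at 15 and 34.4 CPM in WT and at 1.12, 51.5, 68.9 and 33.8 in null epiblasts. E5.5 null 1, with the low Mixl1, also had no Evx1 count, while the other null epiblasts had 8.31 to 18.8 CPM and the WT ones 1.17 and 8.26. T had 0 counts in all 4 null epiblasts and in E5.5 WT 1, and 13 counts in E5.5 WT 2. Mesp1 had 0 counts in every E5.5 epiblast, Nkx1-2 at most 4 counts, and Tbx6 and Cdx1 were at 0 to 6.24 CPM.

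Null and WT were tested with edgeR (quasi-likelihood, p adjusted by Benjamini-Hochberg across every gene in the fit), and a factor counts as called where the adjusted p is below 0.05 and the log2 fold change exceeds 1 in size. At E5.5, 5 of the 10 factors passed the filter on low counts. None was called (4 higher, 1 lower, median log2 fold change 0.65 against -0.01 over all genes), and the background was 0% of 18690 genes. None had an unadjusted p under 0.05, against 467 of all genes, and DESeq2 called no factor and 14 genes. Eomes differed by 0.39 (SE 0.24) and Mixl1 by 0.65 (SE 1.25), or by 0.20 (SE 0.16) and 1.06 (SE 0.41) without E5.5 null 1. Again none was called without that library, with 3 higher and 2 lower (Cdx1 at -0.56) and a median of 0.20.

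From E5.5 to E6.5 in WT epiblasts, Nkx1-2 was the one factor called. It had 0 counts in both E5.5 epiblasts and 0.391 to 4.54 CPM (median 1.28) in the 9 at E6.5, which is at least 19.9-fold higher (edgeR adjusted p = 0.0092). The groups did not overlap, as was so for 16.6% of all genes. Of all genes 5.15% were called, and of the factors 1 of the 8 tested. The call was lost without E5.5 WT 1 (adjusted p = 0.137). T was at 0 and 0.457 CPM in E5.5 WT and at 0 to 59.6 CPM (median 22.5) at E6.5 (log2 fold change 6.65, SE 3.39, adjusted p = 0.284). Mesp1, at 0 in both E5.5 epiblasts, was found in 5 of 9 at E6.5 at up to 25.5 CPM. DESeq2 called Nkx1-2, T and Mesp1.

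The E6.5 WT epiblasts differed widely among themselves. T was at 0, 1.25, 0 and 3.78 CPM in WT 1 to WT 4 and at 22.5, 37.3, 44.5, 59.6 and 40.9 CPM in WT 5 to WT 9. Eomes was at 92.9, 83.9, 133 and 98.7 CPM in the first 4 of these and at 288 to 456 in the other 5. Mesp1 and Mesp2 had 0 counts in the first 4, and 1.72 to 25.5 CPM and 0.542 to 1.61 CPM in the other 5. The same 5 epiblasts were thus high in all 4 factors. The visceral endoderm sum differed along with them: 2014, 477, 6476 and 1062 CPM in WT 1 to WT 4 and 144 to 298 in WT 5 to WT 9. Depth differed too, since WT 1, WT 2 and WT 3 held over 40000000 counts and WT 4 to WT 9 did not. Neither the part of depth nor that of the visceral endoderm in these values was tested. Msgn1 had 0 counts in all 9, and Cdx1 in 8 of 9.

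**Figure D2:**
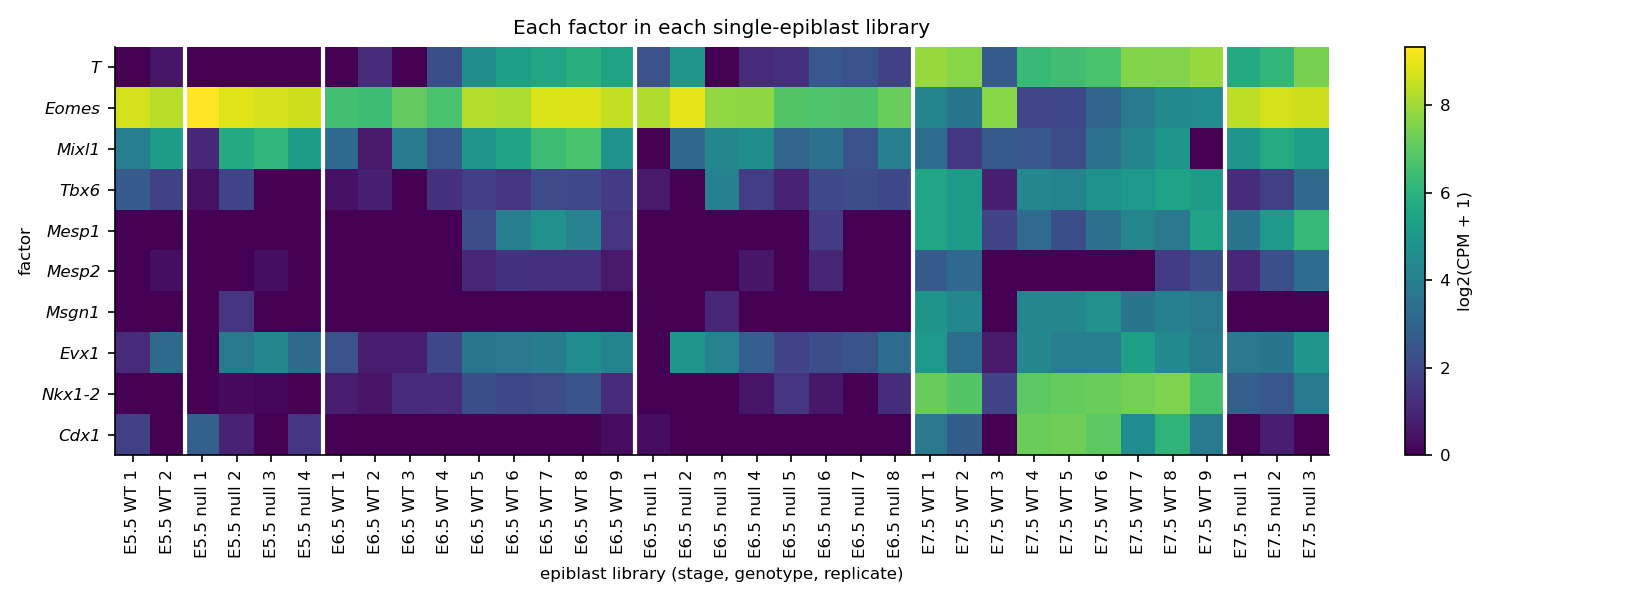
Each column is 1 epiblast library and each row 1 factor, with the colour giving log2(CPM + 1) and white lines separating the groups. E7.5 WT 3 has high Eomes and 0 counts of Msgn1 and Cdx1, whereas the other 8 E7.5 WT columns have 2.84 to 21.4 CPM of Eomes.

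From E6.5 to E7.5 in WT epiblasts, 3 factors of the 8 tested were called, with 8.83% of all 17191 genes called. Nkx1-2 rose from 0.391 to 4.54 CPM to 97.9 to 184 CPM in 8 epiblasts and 2.76 CPM in E7.5 WT 3 (log2 fold change 5.80, SE 0.64, edgeR adjusted p = 1.47e-05). Tbx6, a T-box factor required for paraxial mesoderm, rose from 0 to 3.47 CPM to 17.4 to 44.7 CPM in 8 epiblasts and 0.760 in E7.5 WT 3 (3.94, SE 0.69, adjusted p = 0.000458). Eomes fell by 2.93 on the log2 scale (SE 0.80, adjusted p = 0.0124). It was at 83.9 to 456 CPM at E6.5, at 2.84 to 21.4 CPM in 8 E7.5 epiblasts, and at 203 CPM in E7.5 WT 3. Through WT 3 the stages overlapped in all 3 factors, and each of the 3 calls held when any 1 of the 18 libraries was left out.

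Msgn1 and Cdx1 had counts in 8 of the 9 E7.5 WT epiblasts, too few for the filter on low counts, and were not tested. Msgn1, a bHLH factor of presomitic mesoderm, was at 0 in all E6.5 WT epiblasts and at 27.6, 19.3, 18.9, 18.8, 25.4, 11.2, 15.9 and 12.8 CPM in those 8, at least 218-fold higher in the mean of all 9. Cdx1, a caudal-type homeobox factor (chr18:61018862-61036199), was at 12.2, 5.70, 148, 159, 126, 22.04, 66.1 and 13.03 CPM in the same epiblasts. It was highest in WT 4, WT 5 and WT 6, which had the lowest T of the 8 (78.5, 86.5 and 100.1 CPM against 189 to 237) and the lowest Eomes (2.84, 3.02 and 7.11 CPM). In 9 fits that each left out 1 E6.5 WT epiblast, both passed the filter and 5 factors were called. Across all 18 fits without 1 library, 1363 to 1902 genes were called. Without E7.5 WT 3 both passed the filter, and 6 of 10 factors were called among 1902 genes, against 1518 genes with all libraries. The 6 were T at a log2 fold change of 2.77 (adjusted p = 0.0401), Tbx6, Msgn1, Nkx1-2 and Cdx1, all higher, and Eomes, lower at -4.46 (adjusted p = 1.2e-05).

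The other factors were not called from E6.5 to E7.5 in WT. T had a log2 fold change of 2.61 (SE 0.99, adjusted p = 0.0647), and its 9 values at E7.5 ran from 5.45 CPM in WT 3 to 237 (median 189). Mixl1 was at 0.565 to 100.3 CPM at E6.5 and 0 to 28.6 at E7.5 (-2.004, SE 0.86, adjusted p = 0.0987). The fold changes of Mesp1 (1.41, SE 1.16), Mesp2 (1.58, SE 1.43) and Evx1 (0.87, SE 0.65) did not pass the test. Mesp2, which acts in somite segmentation, had 0 counts in 5 of 9 E7.5 epiblasts, WT 3 to WT 7.

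The 26 other genes of the streak programme give a setting for these changes, and 16 of the 24 tested were called from E6.5 to E7.5 in WT, 11 higher and 5 lower. Among ligands and co-receptors, Wnt3a (log2 fold change 5.35), Bmp4 (2.98) and Wnt8a (2.41) rose, while Tdgf1 (-4.36), Nodal (-2.87), Fgf4 (-1.99), Fgf8 (-1.61) and Wnt3 (-1.35) fell. Among transcription factors and Notch ligands, 8 rose, which were Cdx2 (6.49), Dll1 (5.65), Meox1 (5.41), Hand1 (4.33), Dll3 (2.34), Tbx3 (2.29), Gata6 (1.85) and Foxc2 (fitted at 13.53). Markers of other tissues were higher at E7.5 too: the visceral endoderm sum had a median of 298 CPM (144 to 6476) at E6.5 and 2435 (767 to 5382) at E7.5, and the extraembryonic ectoderm sum 42.6 (38.2 to 60.8) and 143 (48.5 to 189). Their part in the levels of the streak genes was not tested. The 4 readout genes of Wnt and Nodal signalling (Sp5, Axin2, Lef1 and Lefty2) were not called. Axin2 rose by 0.92 (SE 0.26, edgeR adjusted p = 0.0144), under the fold needed for a call. From E5.5 to E6.5 in WT, 24 were tested, and 4 were called, all lower: Bmp4 (-4.17), Cdx2 (-3.98), Cdx4 (fitted at -8.29) and Gata6 (-2.69). Cdx2 is also in the extraembryonic ectoderm list, and the sum of that list was 86.2 and 580 CPM at E5.5 and 38.2 to 60.8 at E6.5. The visceral endoderm sum was 6177 and 8052 CPM at E5.5 and had a median of 298 at E6.5, and the part of either tissue in these calls was not tested. None was called between null epiblasts of successive stages (21 and 24 tested).

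Compared per length, T had the highest mean in E7.5 WT epiblasts, at 63.9 ± 35.5 CPM per kb of exon (SD, n = 9), a spread that reaches the means of the next factors. It led in 5 of the 9 epiblasts, while Cdx1 stood above it in WT 4, WT 5 and WT 6 and Eomes in WT 3. Nkx1-2 followed at 37.8 ± 15.9, Cdx1 at 35.02 ± 37.4 and Msgn1 at 27.2 ± 13.3, which do not differ from one another beyond their spread. Tbx6 and Mesp1 were both at 15.2 (SD 7.43 and 12.6), Eomes at 7.98 ± 15.4 with most of it from WT 3, Evx1 at 6.30 ± 3.85, Mixl1 at 3.88 ± 3.90 and Mesp2 at 1.08 ± 1.51. The order in E7.5 null epiblasts was another. Eomes led at 92.3 ± 10.5 CPM per kb (n = 3), before T at 42.1 ± 27.5, Mesp1 at 30.9 ± 26.1 and Mixl1 at 17.3 ± 5.35. Evx1 was at 6.19 ± 3.64, Nkx1-2, Mesp2 and Tbx6 at 2.24 to 2.42, Cdx1 at 0.133 and Msgn1 at 0.

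Whether the Stat3 null epiblast differs from WT at E6.5, when the streak begins, was tested next. No factor was called, and the groups overlapped in all 6 factors tested. T was at 3.92, 28.6, 0, 1.16, 1.45, 4.78, 4.08 and 2.46 CPM in null 1 to null 8 (median 3.19), against a WT median of 22.5 with a range of 0 to 59.6. The highest null epiblast, null 2, lay above 5 of the 9 WT epiblasts, and the other 7 null epiblasts lay at 4.78 CPM or below, among the 4 lowest WT values of 0 to 3.78 CPM or just above them. Null 2 and null 3 had the fewest genes with a count of all epiblasts, 15531 and 15171, against 17961 to 22310 in the others. Null 2 was also the highest null epiblast in Evx1, and null 3 in Tbx6. The part of the low gene number in these values was not tested. Mesp1 had counts in 1 of 8 null epiblasts (null 6, 2.12 CPM) and in 5 of 9 WT. Nkx1-2 was at 0 in 4 of 8 null epiblasts and at most 1.73 CPM, against 0.391 to 4.54 in WT.

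Of the 10 factors 6 passed the filter on low counts at E6.5, and the background was 0% of 17095 genes called. The log2 fold changes were -1.95 for T (SE 1.27, edgeR adjusted p = 0.779), -2.12 for Nkx1-2 (SE 1.09, adjusted p = 0.657), -1.66 for Mixl1 (SE 0.89, adjusted p = 0.691), -0.20 for Eomes (SE 0.42), -0.06 for Evx1 (SE 0.83) and 1.12 for Tbx6 (SE 0.92). Their median was -0.93 against -0.01 for all genes, no factor had an unadjusted p under 0.05 against 1414 of all genes, and DESeq2 called no factor and 28 genes. Tbx6 was highest in null 3, at 15.97 CPM, a library with a visceral endoderm sum of 7159 CPM. The visceral endoderm sums were 399 to 7159 CPM (median 1055) in null and 144 to 6476 (median 298) in WT epiblasts, with 13 to 18 of the 18 genes over 3 counts, and the extraembryonic ectoderm sums were 42.4 to 1224 and 38.2 to 60.8 CPM, with 6 to 12 of the 12 genes over 3 counts. No marker was at 0 in a whole group. Without E6.5 null 1, null 3 and WT 3 the fold changes were -1.85 for T, -0.42 for Eomes and 0.13 for Tbx6, with none called. The part of these tissues in the values of T and Eomes was not tested. Of the other streak genes, 21 were tested at E6.5 and 25 at E5.5, with none called.

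The sign of the fold changes of T, Eomes, Mixl1 and Evx1 at E6.5 differed with the depth of the libraries. Among those under 40000000 counts (5 null, 6 WT), T was at 1.16 to 4.78 CPM in null and 3.78 to 59.6 in WT, a log2 fold change of -3.66 (SE 0.67, edgeR adjusted p = 0.0592). Eomes (-1.27, adjusted p = 0.153), Mixl1 (-2.02, 0.248), Evx1 (-1.41, 0.133), Mesp1 (-4.57, 0.277), Mesp2 (-1.83, 0.608) and Nkx1-2 (-1.83, 0.253) were lower too, Tbx6 differed by 0.09, and 16 genes were called, none a factor. In the 3 null and 3 WT libraries over 40000000 counts the fold change was 4.66 for T (SE 2.87), 1.70 for Eomes, 0.23 for Mixl1 and 3.06 for Evx1, with adjusted p of 0.943 to 1. Tbx6 (3.79) and Nkx1-2 (-8.62, with 0 counts in the 3 null libraries) kept their signs there. In these 3 WT libraries T was at 0, 1.25 and 0 CPM, while the 3 null libraries held 3.92, 28.6 and 0. These null libraries include null 2 and null 3, which had the fewest genes with a count. What distinguishes the deeper libraries is not in the labels, and with the depth group as a term in the fit no factor was called (T -1.77, adjusted p = 0.865).

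**Figure D3:**
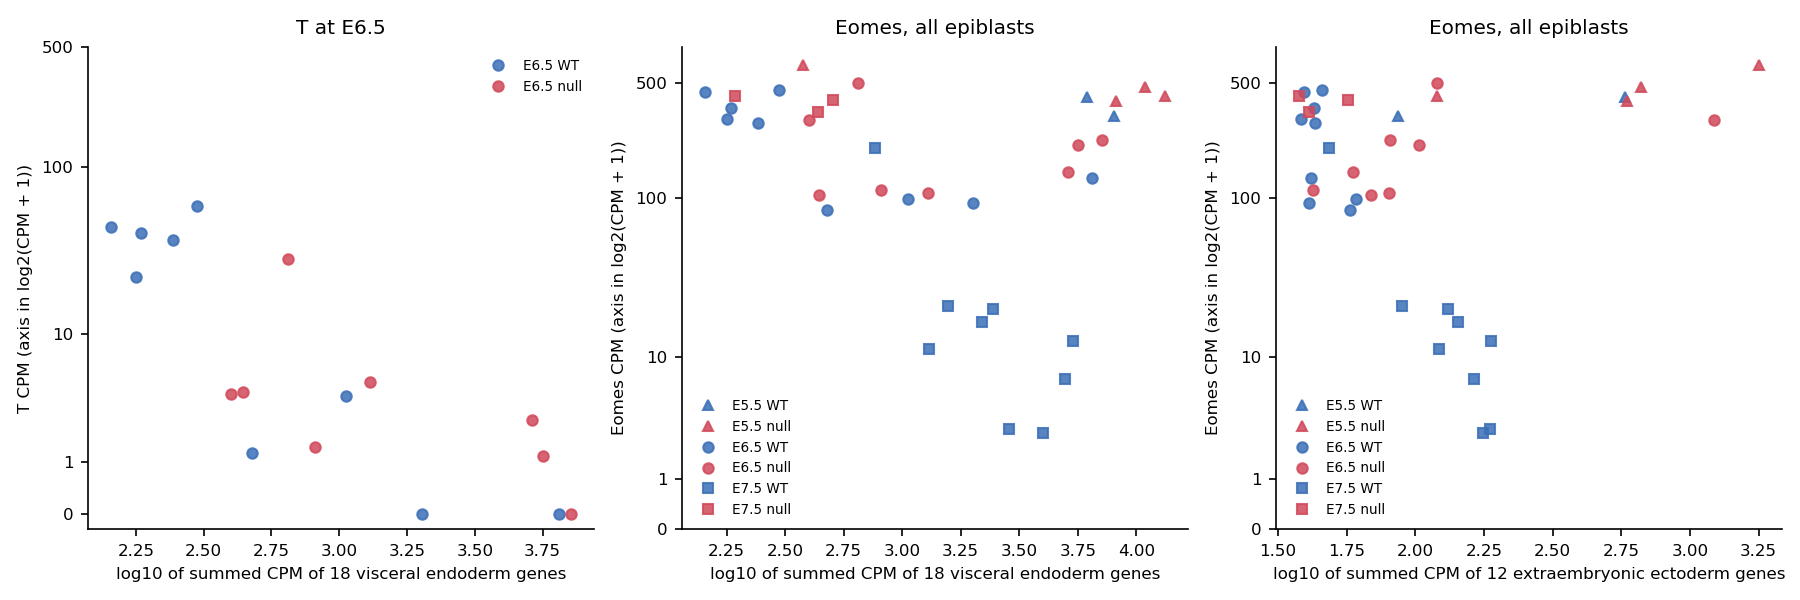
The left panel plots T at E6.5 against the summed CPM of 18 visceral endoderm genes, and the other panels plot Eomes in all 35 epiblasts against that sum and against the sum of 12 extraembryonic ectoderm genes (x axes in log10, y axes spaced as log2(CPM + 1)). The 3 E7.5 null epiblasts, as red squares, have 336 to 421 CPM of Eomes at visceral endoderm sums of 194 to 506 CPM, while 8 E7.5 WT epiblasts have 21.4 CPM or less.

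Over the 17 E6.5 libraries the factors varied together to different degrees, described here without a test since the libraries share depth and dissection differences. Mesp1 and Mesp2 were the most alike (Spearman's rho 0.947 and Pearson's r 0.922 on log2 CPM), then Mixl1 and Mesp2 (0.812 and 0.618) and T and Mesp1 (0.793 and 0.687). Mesp1 had 0 counts in 4 WT and 7 null of these libraries, and Mesp2 in 4 WT and 6 null. Such tied zeros enter the values of these pairs. The lowest values were those of Tbx6 with Nkx1-2 (rho 0.152, r 0.111) and with Eomes (0.162 and 0.0213). Outside the factors, the nearest of 17228 genes to Evx1 was Wnt3 (rho 0.909, r 0.947), before Slc25a36 (0.900) and Gm38376 (0.897). Mixl1 was nearest to Sp5, a Wnt target (0.862, r 0.792), Hdx (0.855) and Zfp618 (0.828). T was nearest to Lig1 (0.912, r 0.716), Grrp1 (0.890) and Gm11714 (0.882), Eomes to Nin (0.843, r 0.825), Setd1b (0.824) and Gm38376 (0.797), Tbx6 to Rpl17-ps8 (0.887, r 0.938), Ube2r2 (0.871) and Zfp157 (0.858), and Nkx1-2 to Gm21060 (0.891, r 0.872), Gm15916 (0.816) and Spry2 (0.809).

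At E7.5 the null and WT epiblasts lay apart in some of the factors. The levels of Eomes and Mixl1 were higher in all 3 null epiblasts than in any WT one. Those of Msgn1, Nkx1-2, Tbx6 and Cdx1 were lower in null than in 8 of 9 WT epiblasts. T, Mesp1, Mesp2 and Evx1 overlapped between the genotypes. With all 12 libraries, Msgn1 was the 1 call among the 10 factors, all of which were tested, and 1.17% of 19680 genes were called. The median log2 fold change of the factors was -0.22 against -0.02 for all genes.

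Msgn1 had 0 counts in all 3 null epiblasts and 11.2 to 27.6 CPM in 8 WT epiblasts, with 0 in E7.5 WT 3. It was at least 220-fold lower in null in the mean (edgeR adjusted p = 0.0452), and through WT 3 the groups overlapped. The call was lost when any 1 of 11 libraries was left out, with adjusted p up to 0.177, and not without WT 3 (4.99e-07).

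Nkx1-2 was at 6.10, 4.74 and 12.9 CPM in the null epiblasts, against 97.9 to 184 in 8 WT epiblasts and 2.76 in WT 3. Through WT 3 the groups overlapped, and the log2 fold change was -3.87 with all libraries (SE 0.97, edgeR adjusted p = 0.0638). Without WT 3 it was -4.04 (SE 0.34, adjusted p = 3.43e-05), in a fit that called 1105 genes against 231 with all libraries. WT 3 was singled out for its levels of these same factors. Fits without it are thus no independent support for a genotype difference. Tbx6 was at 1.28, 2.37 and 8.45 CPM in null, against 17.4 to 44.7 in 8 WT epiblasts and 0.760 in WT 3 (-2.67, SE 0.95, adjusted p = 0.145, and -2.84, adjusted p = 0.00456 without WT 3). Cdx1 had 0, 26 and 0 counts in null (0, 0.700 and 0 CPM), against 5.70 to 159 CPM in 8 WT epiblasts (-8.00, SE 2.44, adjusted p = 0.104, and -8.17, adjusted p = 0.0207 without WT 3). Both Tbx6 and Cdx1 thus overlapped between genotypes only through WT 3.

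Eomes was at 336, 421 and 394 CPM in the null epiblasts. In WT it was at 17.02, 11.3, 203, 2.84, 3.02, 7.11, 12.8, 20.5 and 21.4 CPM (WT 1 to WT 9). The groups did not overlap, which was so for 3.84% of all genes, and the log2 fold change was 3.55 (SE 1.11, edgeR adjusted p = 0.109), and 5.09 (SE 0.55, adjusted p = 0.00033) without WT 3. Markers of the tissues in which Eomes is also expressed are set beside it, and their part in its level was not tested. The visceral endoderm sum was 194 to 506 CPM in null and 767 to 5382 in WT, with 16 to 18 of 18 genes over 3 counts. The extraembryonic ectoderm sum was 37.7 to 57.0 in null and 48.5 to 189 in WT, where null 3 lay above WT 3, with 8 to 11 of 12 genes over 3 counts and none at 0 in a whole group. Elf5, a defining extraembryonic ectoderm factor, had 0 counts in null 1 and null 2, whose Eomes was at 336 and 421 CPM, and 23 counts in null 3. It also had 0 counts in WT 1, WT 2 and WT 4 to WT 8, with 3 in WT 3 and 13 in WT 9. Of the 12 genes, 9 in null 1 and 8 in null 2 had over 3 counts. Cdx2 belongs to that list and is itself a posterior factor at this stage. The epiblast sum of 5 genes was 892 to 1242 CPM in null and 285 to 1121 in WT, and that of 6 neuroectoderm genes 19.4 to 45.8 against 19.96 to 858. In WT, the highest epiblast sum and the lowest neuroectoderm sum were those of WT 3. Next came WT 9, at 644 and 190 CPM.

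Mixl1 was at 28.7, 53.0 and 37.5 CPM in null, each above the highest WT epiblast at 28.6, WT 8, where the lowest was WT 9 with 0 counts. The log2 fold change was 2.24 (SE 0.92, edgeR adjusted p = 0.207), and 2.18 (adjusted p = 0.199) without WT 3, so that the difference did not pass the test. T was at 50.9, 71.6 and 170 CPM in null and at 5.45 to 237 (median 189) in WT (-0.51, SE 0.80, adjusted p = 0.832). Null 3 stood highest of the null epiblasts in T, Tbx6, Mesp1 (10.96, 31.2 and 75.9 CPM), Mesp2 (1.04, 3.82 and 9.07), Evx1 (12.2, 11.4 and 29.9) and Nkx1-2. Mesp1 (1.11, SE 0.81), Mesp2 (1.23, SE 1.71) and Evx1 (0.06, SE 0.74) were not called.

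**Figure D4:**
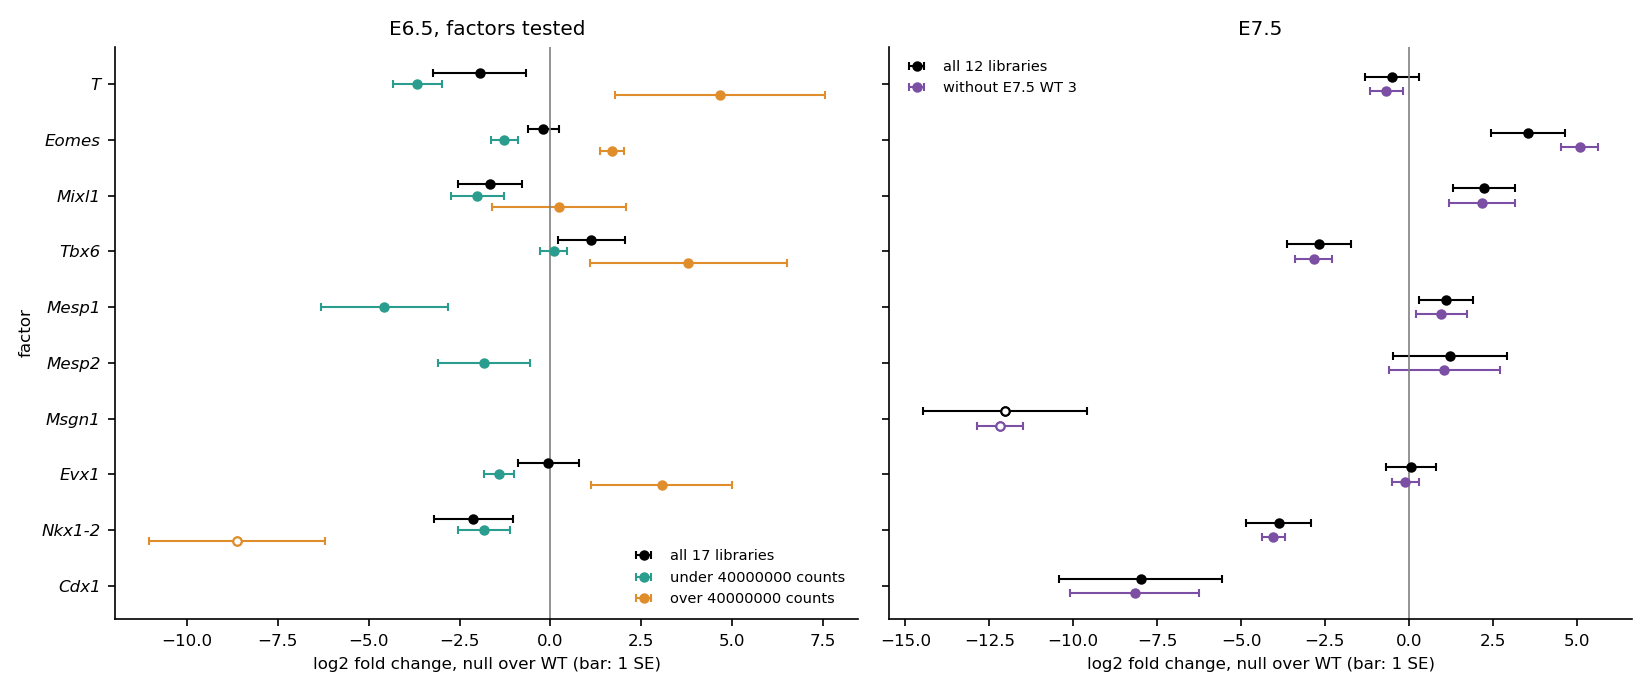
Points are log2 fold changes of null over WT from edgeR, and bars are 1 SE, for E6.5 (all libraries and within 2 depth groups) and E7.5 (all libraries and without E7.5 WT 3). Open points have a group at 0 counts, so their size depends on the fit. At E6.5 T lies at -3.66 in the shallower and 4.66 in the deeper libraries, and at E7.5 Eomes moves from 3.55 to 5.09 without WT 3.

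Without E7.5 WT 3, 5 of the 10 factors were called at E7.5 (Eomes higher, and Tbx6, Msgn1, Nkx1-2 and Cdx1 lower) among 1105 genes, against 231 genes with all libraries. WT 3 was singled out for its levels of these same factors, so leaving it out narrows their spread. The fits without it describe the other epiblasts and are no independent support for a genotype difference. DESeq2 on all 12 libraries called the same 5 factors among 990 genes. No factor was called without null 2, along with 0 genes. Among the 26 other streak genes, all tested at E7.5, 9 were higher and 17 lower in null, with a median log2 fold change of -0.92. Wnt3, the ligand needed to start the streak, was the 1 called. It was at 13.04, 20.9 and 22.1 CPM in null and 1.19 to 9.02 in WT (2.14, SE 0.45, adjusted p = 0.0337), and the groups did not overlap. None of the 14 transcription factors and Notch ligands of that list was called, with 10 lower and 4 higher in null and a median of -1.96.

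Among null epiblasts from stage to stage, T was the factor called between E5.5 and E6.5, and no factor was called between E6.5 and E7.5. T had 0 counts in all 4 at E5.5 and a mean of 5.80 CPM at E6.5, at least 59.6-fold higher (edgeR adjusted p = 0.0381, 1 of 6 factors tested, with 1.98% of all genes called), and 1 of 8 E6.5 null epiblasts was still at 0. The call was lost in 7 of 12 fits that each left out 1 library, with adjusted p up to 0.101, but not without E5.5 null 1 (0.0493). DESeq2 called T and, lower at E6.5, Eomes. From E6.5 to E7.5 all 8 factors tested were higher, by a median log2 fold change of 2.94 against -0.01 for all genes, and 0.103% of all genes were called. T (4.03, SE 1.12, adjusted p = 0.272), Mesp1 (7.24, SE 1.67, 0.15), Mesp2 (4.73, SE 1.72, 0.448), Nkx1-2 (3.99, SE 1.49, 0.475) and Mixl1 (1.89, SE 0.93, 0.654) did not overlap between the stages, as was so for 5.90% of all genes. Of the 8, 4 had an unadjusted p under 0.05, and DESeq2 called none of them and 296 genes. T was called without E6.5 null 2 (adjusted p = 0.0475), and Mesp1 without E6.5 null 6 (0.035), the one E6.5 null epiblast with Mesp1 counts. Eomes was at 104 to 503 CPM in E6.5 null epiblasts and 336 to 421 at E7.5 (0.82, SE 0.44, adjusted p = 0.719).

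Null epiblasts were then set against WT epiblasts of the stage before, a comparison made for developmental delay and sharing its samples with the comparisons above. E7.5 null epiblasts showed no call among 8 factors tested against E6.5 WT, with 0.162% of all genes called. All 8 were higher, with a median of 1.55 against -0.01 for all genes. Nkx1-2 alone did not overlap, as was so for 4.56% of all genes (4.74 to 12.9 against 0.391 to 4.54 CPM, log2 fold change 1.86, SE 0.58, adjusted p = 0.283) and was the 1 factor with an unadjusted p under 0.05. Eomes (0.61, SE 0.52), Mixl1 (0.21, SE 1.05), Evx1 (0.91, SE 0.84), Tbx6 (1.23, SE 0.92), T (2.07, SE 1.42), Mesp1 (2.50, SE 1.72) and Mesp2 (2.80, SE 1.38) had adjusted p of 0.598 to 0.993, and DESeq2 called no factor. Msgn1 had 0 counts in both groups. Against E5.5 WT, E6.5 null epiblasts likewise showed no call among 7 factors tested, with 0.162% of all genes called, none with an unadjusted p under 0.05 and none called by DESeq2. These tests do not show that the groups are alike: the fold change of T, for instance, carried an SE of 2.32 at 4.67.

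Whether the genotype difference itself changed from E6.5 to E7.5 was tested as an interaction over the 29 libraries of both stages, with all 10 factors tested and 0.443% of all genes called. Msgn1 was called (adjusted p = 0.0441). It had counts in 8 of 9 E7.5 WT epiblasts and none of the E7.5 null ones, and at E6.5 in 1 of 8 null epiblasts (null 3, 44 counts) and no WT. The call was lost in 20 of 29 fits without 1 library, among them that without E6.5 null 3. Eomes (3.74, SE 1.07, adjusted p = 0.0874) and Cdx1 (-9.17, SE 2.51, 0.0760) were not called with all libraries and were called without E7.5 WT 3 (5.27, adjusted p = 9.37e-05, and -9.36, adjusted p = 0.0118). The fit without E7.5 WT 3 called 482 genes, against 98 with all libraries. Cdx1 had counts at E6.5 in 1 null and 1 WT epiblast, and its value was -5.14 (adjusted p = 1) without the former, E6.5 null 1. The interaction for Nkx1-2 was -1.70 (SE 1.24, adjusted p = 0.616), so a change in its genotype difference between the stages was not shown.

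In EpiSCs the early factors were expressed in both genotypes and the posterior and presomitic factors were near 0, apart from Nkx1-2 and a low level of Tbx6. Eomes was at 152 and 71.2 CPM in WT lines 8 and 13 and at 88.6 and 120 in null lines 2 and 6. T was at 22.1 and 13.2 CPM in WT and 6.67 and 10.2 in null, and Mixl1 at 6.91 and 2.97 against 3.29 and 3.15. Every WT line exceeded every null line in T, and in Nkx1-2 the order was opposite, with 9.59 and 7.89 CPM in WT and 13.9 and 13.3 in null. Tbx6 was at 1.09 to 1.39 CPM and Evx1 at 0.141 to 0.410. Mesp1, Mesp2, Msgn1 and Cdx1 had at most 12 counts in any line and were not tested. The visceral endoderm sums were 50.6 and 51.3 CPM in null and 72.4 and 84.4 in WT lines, and the extraembryonic ectoderm sums 27.2 to 33.7. Of the 22 other streak genes tested, none was called.

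None of the 6 factors tested in EpiSCs was called by edgeR, with 0.106% of all genes called. T differed by -1.09 (SE 0.34, adjusted p = 0.438) and Nkx1-2 by 0.62 (SE 0.16, adjusted p = 0.271), both with an unadjusted p under 0.05. With 2 lines a genotype, 40.2% of all genes did not overlap between the groups. DESeq2 called T (-1.08, SE 0.31, adjusted p = 0.0202) and gave Nkx1-2 a fold change of 0.62 (adjusted p = 0.0312), under the fold needed for a call. Eomes (-0.13, SE 0.51), Mixl1 (-0.64, SE 0.42), Tbx6 (-0.08, SE 0.31) and Evx1 (0.42, SE 0.64) were not called by either tool.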

How the data were processed

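Bulk RNA-seq libraries of 35 single epiblasts (SMARTer stranded total RNA kit) and 4 EpiSC lines (NEBNext Ultra II after ribosomal RNA removal) were analysed from gene counts that the authors deposited. Per the labels and the study's methods, the authors trimmed reads with Trim Galore, aligned them with HISAT2 to GRCm38 (mm10) and counted them per gene with StringTie. The annotation version and strand setting are not given in the sources used here. Total counts were 22941210 to 127583699 per library. The columns hold no normalization, and depth sets the lowest detectable level (3 counts). All 10 factors matched GENCODE vM21 by gene ID, 9 with the same version.

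CPM was each count over the library total. Tests used edgeR 4.0.16 in R 4.3.3 on the libraries of the groups compared, with TMM factors and robust quasi-likelihood fits. Low genes were dropped with filterByExpr (counts of 10 in the smaller group, 15 in total). Tests were two-sided and adjusted by Benjamini-Hochberg across the genes in each fit. The SE is the size of the log2 fold change over the square root of F. A fold against a group at 0 counts is a lower bound, from 3 counts per library in that group. Genes alike were sought by Spearman's rho of log2 CPM, with a prior count of 2, among genes with 10 counts in at least 8 of 17 E6.5 libraries. The fits were checked on simulated data. Copies were sought with blastn 2.17.0. Alternatives were DESeq2 1.42.0, RLE factors in edgeR, dropping the filter on low counts, requiring a mean count of 50 or more, no genes over 1% of counts, a replicate block, all 35 epiblasts in 1 fit, the Y genes as a covariate, depth groups, and each library left out in turn. Leaving out E6.5 null 1, null 3 and WT 3 together was chosen after seeing the data. Of the fits without 1 library, that without E7.5 WT 3 was singled out for the factor levels of this epiblast. Named were the 10 factors, Stat3, the called genes of 26 other streak genes, and the 3 genes most like each factor tested at E6.5. The factors, lists and tests were chosen with earlier results of these data known. Epiblasts of a group are separate embryos, and whether they share litters is not given.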

Additional observations from a re-analysis of the deposited data

Results flagged for a closer look

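A library was looked at again where its gap to the nearest other of its group, over the range of the group in log2 CPM, passed Dixon's 95% limit. For normal values without ties, chance passes it in about 1 in 20 groups. A group with a count in only 1 library always passes, so the number marked cannot be read against that rate. Of 37 pairs of a factor and a group with a count in groups of 4 to 9 libraries, 18 were marked, and 7 of these were E7.5 WT 3. In that epiblast Eomes stood high at 203 CPM (2.84 to 21.4 in the other 8), while T stood at 5.45 CPM (others 78.5 to 237), Tbx6 at 0.76 (17.4 to 44.7), Evx1 at 0.583 (9.27 to 38.1), Nkx1-2 at 2.76 (97.9 to 184), Msgn1 at 0 (11.2 to 27.6) and Cdx1 at 0 CPM (5.7 to 159). Its visceral endoderm and extraembryonic ectoderm sums, 767 and 48.5 CPM, were the lowest of the E7.5 WT group. Its Stat3 was at 10.7 CPM, where the E7.5 WT group ran from 4.80 to 25.3 and the E7.5 null group from 1.22 to 1.48. In E7.5 WT 9 Mixl1 was at 0 CPM (others 1.86 to 28.6).

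Libraries marked for a lack of counts were E5.5 null 1 for Evx1 (0 CPM, others 8.31 to 18.8), E6.5 null 1 for Mixl1 (0 CPM, others 4.19 to 22.8) and Evx1 (0 CPM, others 2.77 to 29.2), and E6.5 WT 3 for Tbx6 (0 CPM, others 0.381 to 3.47). The null 1 libraries of both stages had the highest extraembryonic ectoderm sums, 1782 and 1224 CPM. The others were marked for being the only library of their group with a count: Mesp2 in E5.5 null 3 (0.265 CPM), Msgn1 in E5.5 null 2 (1.66 CPM) and in E6.5 null 3 (0.982 CPM), Mesp1 in E6.5 null 6 (2.12 CPM), and Cdx1 in E6.5 WT 9 (0.241 CPM) and E6.5 null 1 (0.253 CPM). These are at most 75 counts.

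The genotype difference of Msgn1 passed the interaction test between E6.5 and E7.5 with all libraries (fitted log2 value -17.598, edgeR adjusted p = 0.0441). The call was lost in 20 of 29 fits without 1 library (adjusted p = 1 without E6.5 null 3, whose 44 counts are all the Msgn1 of E6.5), without a filter on low counts and with the replicate block. Since Msgn1 was at 0 in 2 of the 4 groups, the size of that value depends on the fit.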

How the results depend on the processing

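DESeq2 called more: 14 genes at E5.5, 28 for E6.5 (no factor in either), 990 at E7.5 with 5 factors, 205 in EpiSCs with 1 factor, 1936 from E5.5 to E6.5 in WT with 3 factors, 1032 in null with 2, 296 from E6.5 to E7.5 in null, 460 for E6.5 null against E5.5 WT, 227 for E7.5 null against E6.5 WT, and 594 in the interaction with 2 factors. Without a filter on low counts there were 75 genes in EpiSCs, 2805 from E6.5 to E7.5 in WT with 5 factors, 35 in the interaction with 0 factors, and 0 factors at E7.5. A mean count of at least 50 gave 186 genes in the interaction and 5 factors from E6.5 to E7.5 in WT. All 35 epiblasts in 1 fit gave 5 genes at E5.5 and 11 at E7.5 with 0 factors, and the Y genes as a covariate gave 141 at E7.5 with 0 factors and turned Cdx1 at E5.5 (-0.87). At E6.5, libraries under 40000000 counts gave 16 genes, and leaving out E6.5 null 1, null 3 and WT 3, chosen after seeing the data, gave 4. Libraries over 40000000 counts turned T (4.66), Eomes (1.70), Mixl1 (0.23) and Evx1 (3.06), and depth as a term turned Evx1 (0.005). The cause of these shifts was not tested.

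Whether replicate numbers pair null and WT epiblasts was not settled. Correlations of same-numbered deviations were 0.0479 to 0.299 at E5.5, -0.0125 to 0.26 at E6.5 and -0.358 to 0.0666 at E7.5. At E6.5, 4 of the 8 pairs lay at 0.148 to 0.26. Libraries with different numbers were not correlated, so there is no baseline for these values. With the replicate block, 0 genes and 0 factors were called at E7.5, 101 from E5.5 to E6.5 in WT, 2 in null with 0 factors, 0 from E6.5 to E7.5 in null, 13 for E6.5 null against E5.5 WT, 81 for E7.5 null against E6.5 WT with 2 factors, and 22 in the interaction with 0 factors. At E5.5 it turned Mixl1 (-1.52) and Evx1 (-1.93).

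Leaving out 1 library gave 0 to 0 genes at E5.5, 0 to 2 at E6.5, 0 to 1105 at E7.5 with 0 to 5 factors, 26 to 159 in EpiSCs, 102 to 2029 from E5.5 to E6.5 in WT with 0 to 1 factor, 1363 to 1902 from E6.5 to E7.5 in WT with 3 to 6, 145 to 723 from E5.5 to E6.5 in null with 0 to 2, 0 to 32 from E6.5 to E7.5 in null with 0 to 1, 4 to 173 for E6.5 null against E5.5 WT, 4 to 88 for E7.5 null against E6.5 WT, and 0 to 482 in the interaction with 0 to 3. It turned small fold changes: Cdx1 at E5.5 (-0.56 to 9.13), Evx1 at E6.5 (-0.65 to 0.19), at E7.5 (-0.53 to 0.31) and in the interaction (-0.49 to 0.69), in EpiSCs Eomes (-0.59 to 0.55), Evx1 (-0.14 to 1.29), Mixl1 (-1.14 to 0.12) and Tbx6 (-0.24 to 0.09), Tbx6 from E6.5 to E7.5 in null (-0.998 to 1.09) and Mixl1 in E7.5 null against E6.5 WT (-0.056 to 0.59).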
